A study of Mus musculus with 17 samples.

Results

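The mismatch repair genes Msh3, Msh6, Mlh3, Pms1, Pms2, Exo1 and Pold1, together with Mutyh of base excision repair, were followed in distant MC38 tumors by RNA sequencing. They were found by symbol in the deposited table of 21931 genes, which held all 8 of them, and all 8 passed the filter on low counts that left 13005 genes for testing. The rule that names them uses no measured value, although it was set with earlier results of these data known. MC38 is a colon cancer line of C57BL/6J mice and carries a wild-type label in both groups. Subcutaneous tumors were grown from it on the left and right of C57BL/6J mice aged 6-8 weeks. In the cryoablation group (8 tumors) the tumor on one side was frozen with cryoprobes on the 7th day, and the untreated contralateral tumor was collected 5 days later. The control group (9 tumors) was collected at the same labelled time, and the labels name no sham procedure. The labels do not say whether each tumor came from its own mouse, so p-values measure the spread between these tumors. Host and tumor RNA are both of mouse origin and were counted together.

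Mismatch repair corrects the errors that DNA polymerases leave behind. A MutS dimer finds the mismatch, a MutL dimer cuts or licenses the new strand, an exonuclease removes the stretch with the error, and a polymerase fills the gap. Cells that lose the pathway gain and lose bases in short repeats, and such colon tumors carry many neoantigens, for which reason the pathway matters for immunotherapy. MC38 is used as a model of a highly mutated colon tumor. A read count gives the amount of a transcript and does not show whether that transcript carries a coding change.

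Promoters are shown for 6 of the genes. Pms1 moved together with Pms2 over the tumors, and Msh3 with Mutyh and Pold1, whereas Msh6 passed with none of the others. The promoters of Mlh3, which ran against Msh3, are not shown. The sequences are those of RefSeq on GRCm38.p6, from 250 bases before to 50 bases after the start of transcription, 5′ to 3′ on the strand of the gene. A promoter was at hand for 7 of the 8 genes, and for Exo1 none was used here. Capitals mark the letters TTTCCCGC, TTTGGCGC, TTTCGCGC or TTTGCCGC, which resemble the binding site of E2F factors, and CCAAT, on either strand. Msh3 is at chr13:92354954-92355253 on the minus strand, Msh6 at chr17:87974800-87975099 on the plus strand, Pold1 at chr7:44548766-44549065 on the minus strand, Pms1 at chr1:53296979-53297278 on the minus strand, Pms2 at chr5:143909751-143910050 on the plus strand and Mutyh at chr4:116807484-116807783 on the plus strand.
Msh3: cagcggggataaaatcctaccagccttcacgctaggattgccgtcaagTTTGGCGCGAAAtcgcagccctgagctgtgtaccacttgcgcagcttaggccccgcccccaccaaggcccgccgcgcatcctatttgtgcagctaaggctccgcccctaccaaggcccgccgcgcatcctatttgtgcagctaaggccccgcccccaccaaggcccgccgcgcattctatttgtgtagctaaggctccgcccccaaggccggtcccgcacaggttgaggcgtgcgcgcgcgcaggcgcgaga
Msh6: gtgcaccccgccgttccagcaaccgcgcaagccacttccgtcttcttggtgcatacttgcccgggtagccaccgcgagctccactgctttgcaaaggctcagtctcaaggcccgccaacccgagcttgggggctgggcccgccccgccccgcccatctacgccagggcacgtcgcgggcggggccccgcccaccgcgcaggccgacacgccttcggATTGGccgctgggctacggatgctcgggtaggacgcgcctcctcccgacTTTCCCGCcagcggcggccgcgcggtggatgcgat
Pold1: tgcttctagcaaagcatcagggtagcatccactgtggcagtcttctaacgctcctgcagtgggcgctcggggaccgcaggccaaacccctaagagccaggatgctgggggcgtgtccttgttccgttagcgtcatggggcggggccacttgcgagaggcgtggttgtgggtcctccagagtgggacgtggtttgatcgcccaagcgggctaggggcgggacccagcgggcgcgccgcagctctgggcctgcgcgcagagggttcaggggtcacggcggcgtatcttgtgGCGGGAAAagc
Pms1: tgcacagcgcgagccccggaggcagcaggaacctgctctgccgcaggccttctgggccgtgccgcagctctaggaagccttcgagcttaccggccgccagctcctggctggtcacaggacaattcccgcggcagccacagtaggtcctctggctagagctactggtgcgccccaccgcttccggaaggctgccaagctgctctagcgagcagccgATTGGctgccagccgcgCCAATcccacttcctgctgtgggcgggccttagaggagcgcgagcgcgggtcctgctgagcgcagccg
Pms2: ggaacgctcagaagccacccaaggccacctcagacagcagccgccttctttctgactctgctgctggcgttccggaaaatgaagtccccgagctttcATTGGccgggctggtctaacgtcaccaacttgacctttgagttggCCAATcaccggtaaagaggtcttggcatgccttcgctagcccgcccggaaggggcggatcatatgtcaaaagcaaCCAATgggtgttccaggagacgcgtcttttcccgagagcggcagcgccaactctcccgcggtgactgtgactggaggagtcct
Mutyh: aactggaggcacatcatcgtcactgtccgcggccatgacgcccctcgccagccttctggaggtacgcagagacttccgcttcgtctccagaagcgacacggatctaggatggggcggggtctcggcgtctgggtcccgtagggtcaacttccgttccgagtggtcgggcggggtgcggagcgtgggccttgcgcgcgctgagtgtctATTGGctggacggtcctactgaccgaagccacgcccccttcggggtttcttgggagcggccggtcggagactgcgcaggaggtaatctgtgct

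An E2F-type run of letters was present in the promoters of Msh3, Msh6 and Pold1, 3 of the 9 promoters listed for the 7 genes, against 2.26% of all 32851 promoters of the same length. These 3 promoters were 65.0% to 71.7% G or C, against a median of 52.7% over all promoters. In Msh3 the capitals are an overlap of TTTGGCGC and, on the opposite strand, TTTCGCGC. Msh6 and Pold1 both held TTTCCCGC downstream of the start, in Pold1 on the opposite strand. TTTCCCGC alone was found in 1.07% of all promoters, TTTGGCGC in 0.514%, TTTCGCGC in 0.323% and TTTGCCGC in 0.441%. CCAAT was found in 7 of the 9 promoters (5 genes), against 37.4% of all promoters, with 3 copies in Pms2 and 2 in Pms1. These letters describe the window and do not show binding.

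Single-base repeats inside coding sequence are where mismatch repair failure leaves frameshifts, and the repair genes hold such repeats themselves. Counted in the longest coding sequence of each gene in GENCODE M21, the longest runs were of 7 bases in Msh6, Pms1 and Exo1 and of 6 bases in the other 5 genes. Of 21562 genes, 16.4% had a run of 7 or more and 3.98% one of 8 or more, and none of the 8 genes reached 8. The 4 runs of 7 bases are shown in capitals, from the GRCm38 reference and not from MC38 itself.
Msh6 coding bases 3289 to 3318: attacaaagacTTTTTTTggagacgatttt
Pms1 coding bases 1904 to 1933: aagacggcaggAAAAAAAgggccaccagtt
Exo1 coding bases 1499 to 1528: ccagaagcaggTTTTTTTgcagttctcagg
Exo1 coding bases 1537 to 1566: aatttcataccAAAAAAAgaaagcggccag

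Total counts ranged from 13524899 to 17898672 per tumor, with medians of 16048176 for control and 15130145 for cryoablation tumors. Cryoablation replicates 2, 4 and 5 stood apart from the other 14 tumors on the first principal component. In these 3 tumors long genes were also low against short genes. The slope of log2 CPM on gene length was -0.39 to -0.27 per doubling of length in them and -0.17 to 0.23 in the other tumors. The log2 fold change of each gene is therefore also given without these 3 tumors. Of 8 markers of colon epithelium, Cdx2 had 0 counts in all tumors, Krt20 at most 7 and Vil1 at most 11, and the labels themselves also call MC38 mesenchymal. The 5 markers tested were Epcam, Krt8, Krt18, Krt19 and Cdh1. Summed over the list, the markers gave 16.7 to 96.7 CPM in control tumors and 10.4 to 214.6 CPM in cryoablation tumors. Summed leukocyte markers (8 of 10 tested) ranged from 239.5 to 855.2 CPM among control tumors and from 219.6 to 422.9 CPM among cryoablation tumors. Fibroblast markers (7 of 7 tested) ranged from 7381 to 13240 CPM and from 4988 to 9969 CPM. At an unadjusted p of 0.05 in edgeR, 3 of 3 erythroid markers were higher with cryoablation (5.14 to 72.7 and 23.9 to 170.9 CPM), 1 leukocyte marker (Adgre1) was lower, and 0 of 7 fibroblast, 0 of 4 endothelial, 0 of 3 skeletal muscle and 0 of 5 epithelial markers passed. Over all tested genes the shares were 3.74% higher and 1.17% lower, and each of these 4 markers had an adjusted p of 0.728. Log2 fold changes were below 0 for 8 of 8 tested leukocyte, 4 of 4 endothelial, 6 of 7 fibroblast and 2 of 3 skeletal muscle markers. They were above 0 for 4 of 5 epithelial markers, from -0.35 (Cdh1) to 2.01 (Krt18, SE 1.05). Of all tested genes, 48.0% were above 0. In such bulk tissue, fewer cells of a type and less RNA per cell cannot be told apart, and the part of other cell types in the results was not tested.

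The first question was how strongly each step of repair was expressed in the distant tumors. Levels between genes were compared in FPKM, read counts scaled to the listed gene length and library size after TMM normalization. The recognition gene Msh6 was the highest, with a mean of 31.1 FPKM over the 17 tumors, above 86.9% of the tested genes, whose median was 6.54 FPKM. Pold1 followed at 24.3 FPKM. Mutyh was at 5.35 FPKM, Exo1 at 4.84 FPKM, Msh3 at 2.59 FPKM, Pms2 at 2.06 FPKM, Pms1 at 1.46 FPKM and Mlh3 at 0.570 FPKM. By listed length, the recognition subunit for single mismatches lay above that for larger loops (Msh3). The 3 MutL genes lay in the lower part of the distribution, with Pms2 above 24.0%, Pms1 above 18.8% and Mlh3 above 9.40% of the tested genes. The listed length was 4346 bases for Msh6 and 11254 for Msh3, against coding sequences of 4074 and 3285 bases. For Pms2 the lengths were 8117 and 2577 bases, and for Exo1 8422 and 2511. The order and the shares rest on the listed length, and no order by coding length was computed.

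Not every step in this order was wider than the spread between tumors. The geometric mean of Msh6 was 1.29 times that of Pold1, in 16 of 17 tumors, with overlapping ranges. The gap from Pold1 to Mutyh was 4.56-fold, and the lowest Pold1 value (19.2 FPKM) was above the highest Mutyh value (8.02 FPKM). Mutyh and Exo1 were neighbours without a clear order, 1.09-fold apart with Mutyh higher in 11 of 17 tumors. Exo1 was 1.87 times Msh3 and Pms1 2.58 times Mlh3, both without overlap. Msh3 exceeded Pms2 in 16 of 17 tumors (1.28-fold), and Pms2 exceeded Pms1 in 17 of 17 tumors (1.42-fold), although the ranges of these neighbours overlapped across tumors.

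**Figure D1:**
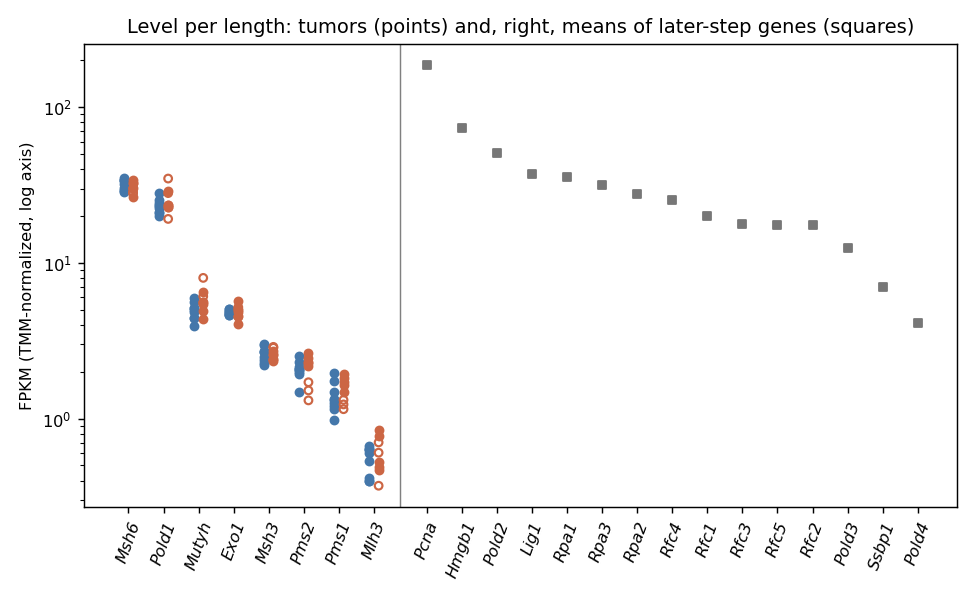
FPKM (log axis) of each gene in each tumor (blue, control, n = 9; orange, cryoablation, n = 8; open, cryoablation replicates 2, 4 and 5), beside the means over 17 tumors of 15 genes of the excision and resynthesis steps (grey squares). Among the 8 genes Msh6 and Pold1 are the highest at 19.2 to 35.4 FPKM, and Mlh3 is the lowest at 0.370 to 0.846 FPKM.

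The main comparison asked whether cryoablation of one tumor changed these genes in the tumor on the other side. None of the 8 genes passed an unadjusted p of 0.05 in edgeR's quasi-likelihood test (0 of 8), against 4.91% of the 13005 genes tested, 3.74% higher and 1.17% lower. None passed the study's threshold of an absolute log2 fold change over 1 with p under 0.05, which 0.492% of all genes passed. After Benjamini-Hochberg adjustment over all genes, 0 of 8 members and 0.0% of all genes passed, and the smallest adjusted p of any gene was 0.728. DESeq2 also gave 0 of 8 at an unadjusted p of 0.05, which 6.77% of all genes passed. Limma voom with sample quality weights gave 2 of 8 (Mutyh and Pms1), where 10.1% of all genes were past 0.05, and in edgeR without cryoablation replicates 2, 4 and 5 it was 0 of 8 against 2.45%. The control and cryoablation ranges overlapped for all 8 genes, and no gene among the 13005 had groups without overlap (0.0%).

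The differences were small as well as uncalled. The log2 fold change, cryoablation over control, was above 0 for 5 genes and below 0 for 3, with a median of 0.07 against -0.01 over all tested genes. The median absolute log2 fold change was 0.10, against 0.14 over all tested genes. The largest was 0.23 (Mutyh), a size that 29.8% of the tested genes exceeded. The 95% intervals of all 8 folds lay between 0.810 and 1.43, so that a change of 1 on the log2 scale in either direction lay outside every interval.

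**Figure D2:**
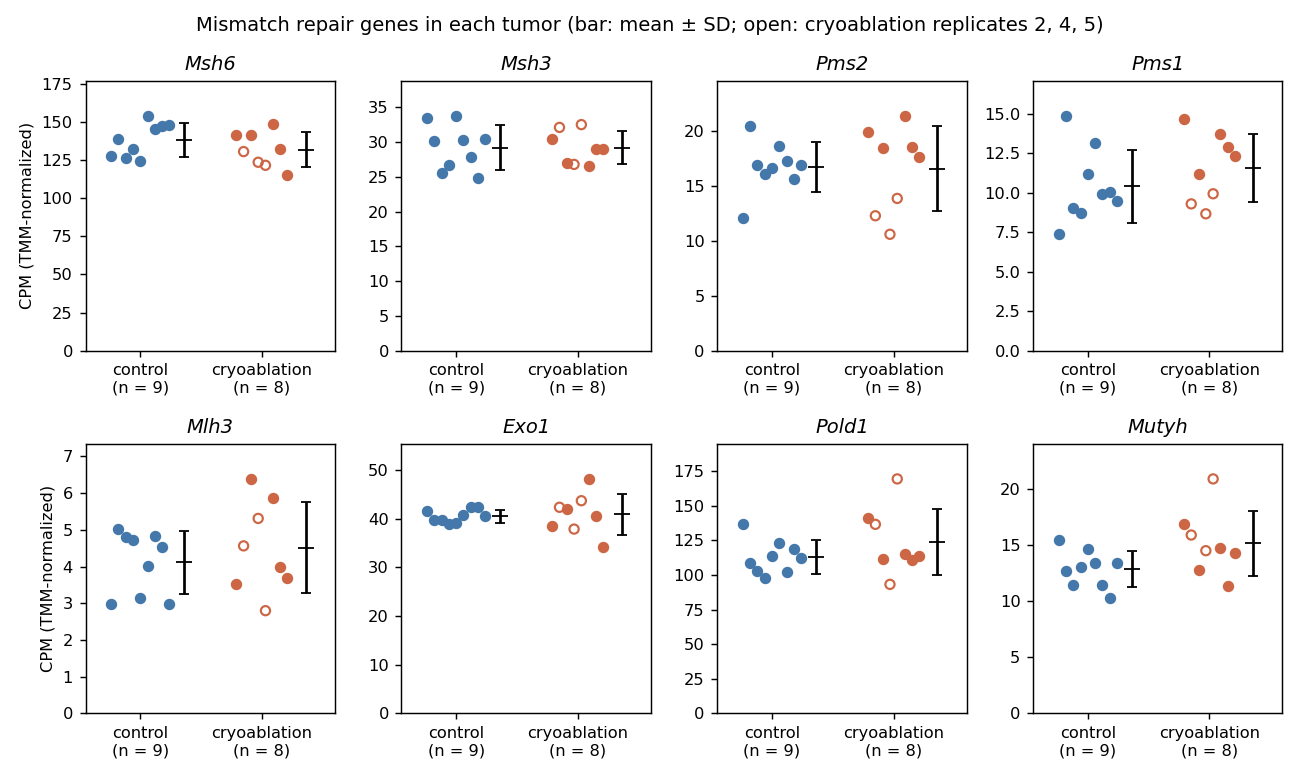
TMM-normalized CPM of each gene in each tumor, with the group mean and SD (bars; control, n = 9; cryoablation, n = 8). Open circles are cryoablation replicates 2, 4 and 5, which are the 3 lowest cryoablation tumors for Pms2 (10.6 to 13.9 CPM) and Pms1 (8.67 to 9.94 CPM) but lie among the others for Exo1 (37.9 to 43.7 CPM).

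Msh6, which recognises single mismatches and short loops with the common MutS partner, lies at chr17:87975062-87990892 (GRCm38, plus strand). Its control values ran from 124.2 through a median of 138.7 to 153.8 CPM, and its cryoablation values from 115.4 through 131.5 to 148.9 CPM. The groups overlapped, with 3 of 8 cryoablation tumors (replicates 4, 5 and 8) below the lowest control tumor and none above the highest. Means were 138.3 ± 10.9 CPM (SD, n = 9) and 132.0 ± 11.5 CPM (SD, n = 8). The log2 fold change was -0.07 (SE 0.07), with an interval of the fold from 0.858 to 1.06 and an exact permutation p of 0.255. It was -0.03 without cryoablation replicates 2, 4 and 5 and -0.04 without replicate 8 alone.

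Msh3, whose protein takes the place of Msh6 in the dimer that recognises larger insertion and deletion loops, lies at chr13:92211872-92355003 (GRCm38, minus strand). It ranged from 24.8 through 30.1 to 33.7 CPM with control and from 26.5 through 29.0 to 32.5 CPM with cryoablation. All 8 cryoablation tumors lay inside the control range. The means were the same to 3 digits, 29.2 ± 3.23 CPM (SD, n = 9) and 29.2 ± 2.36 CPM (SD, n = 8), and the fold lay between 0.885 and 1.13 (exact permutation p = 0.975). The fitted log2 fold change was -0.00 (SE 0.08), and -0.05 without cryoablation replicates 2, 4 and 5. Per listed length, Msh6 was 12.4 ± 1.80 times Msh3 in control tumors (SD, n = 9) and 11.8 ± 1.65 times in cryoablation tumors (SD, n = 8), which did not differ beyond the spread (exact permutation p = 0.495).

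Among the MutL genes, Pms2 encodes the endonuclease subunit of the main MutL dimer. It lies at chr5:143909964-143933968 (GRCm38, plus strand). Control tumors ranged from 12.1 through 16.9 to 20.5 CPM, and cryoablation tumors from 10.6 through 18.1 to 21.4 CPM. The cryoablation values fell into separate ranges, 10.6 to 13.9 CPM in replicates 2, 4 and 5 and 17.7 to 21.4 CPM in the other 5 tumors. Means were 16.8 ± 2.28 CPM (SD, n = 9) and 16.6 ± 3.86 CPM (SD, n = 8), with a log2 fold change of -0.01 (SE 0.14) and an exact permutation p of 0.786. Without the 3 tumors the log2 fold change was 0.19 (edgeR unadjusted p = 0.0885), so its sign rests on them.

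Pms1 encodes another partner of the same MutL subunit, with a less defined role in repair, and lies at chr1:53189187-53297018 (GRCm38, minus strand). Its values were 7.39, 9.92 and 14.9 CPM (lowest, median, highest) in control tumors and 8.67, 11.8 and 14.7 CPM in cryoablation tumors. The cryoablation values all fell inside the control range, and 6 of 8 exceeded its median. Means were 10.4 ± 2.32 CPM (SD, n = 9) and 11.6 ± 2.17 CPM (SD, n = 8), a log2 fold change of 0.15 (SE 0.15, exact permutation p = 0.274). Without cryoablation replicates 2, 4 and 5, the log2 fold change in edgeR was 0.31 and did not pass (unadjusted p = 0.0527), whereas the difference in log2 CPM of 0.33 had an exact permutation p of 0.0430. The fitted value was 0.09 without cryoablation replicate 1 alone. In limma voom with quality weights on all tumors the log2 fold change was 0.29, with an unadjusted p of 0.0247.

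Mlh3, an endonuclease subunit known mostly for meiotic crossing over, lies at chr12:85234520-85270599 (GRCm38, minus strand). It had only 29 to 117 counts per tumor. It ranged from 2.98 through 4.54 to 5.03 CPM in control tumors and from 2.80 through 4.27 to 6.39 CPM in cryoablation tumors. Cryoablation replicates 3, 4 and 6 lay above all control tumors and replicate 5 below them. Means were 4.12 ± 0.858 CPM (SD, n = 9) and 4.52 ± 1.24 CPM (SD, n = 8), a log2 fold change of 0.13 (SE 0.18, exact permutation p = 0.515). It was 0.18 without cryoablation replicates 2, 4 and 5, and between 0.05 (without cryoablation replicate 3) and 0.21 (without cryoablation replicate 5) when 1 tumor was left out. With a replicate block for numbers 1 to 8 it was 0.0578, and in limma voom it was -0.0066. The interval of the fold was the widest of the 8, 0.843 to 1.43. Of the meiotic MutS genes, Msh5 had a log2 fold change of 0.10 (SE 0.13) in edgeR, and Msh4 was not tested at 0 to 5 counts per tumor.

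Since all 3 MutL proteins bind the same partner, their per-length ratios within each tumor were also computed, a choice made after the values were seen. The ratio of Pms2 to Pms1 was 1.52 ± 0.172 in control tumors (1.28 to 1.74, n = 9) and 1.32 ± 0.124 in cryoablation tumors (1.14 to 1.53, n = 8). The ranges overlapped, and the log2 difference was -0.20 (exact permutation p = 0.0179, the smallest of 3 ratios computed). The p stayed between 0.00777 and 0.0381 when each tumor was left out in turn. Without cryoablation replicates 2, 4 and 5 the difference was -0.13 with an exact permutation p of 0.136. The ratio of Pms2 to Mlh3 was 3.17 to 5.29 (n = 9) and 1.86 to 5.26 (n = 8), with an exact permutation p of 0.457.

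Exo1, the exonuclease that removes the strand with the error, lies at chr1:175880581-175913489 (GRCm38, plus strand). Its 9 control values were tightly grouped at 38.8, 40.6 and 42.4 CPM (lowest, median, highest), whereas cryoablation values were 34.2, 41.3 and 48.2 CPM. Of 8 cryoablation tumors, 3 lay above the control range and 3 below it. Means hardly differed, 40.6 ± 1.33 CPM (SD, n = 9) and 40.9 ± 4.21 CPM (SD, n = 8), with a log2 fold change of 0.01 (SE 0.07, exact permutation p = 0.893) that was -0.00 without cryoablation replicates 2, 4 and 5.

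The spread of Exo1 was compared between the groups as well. The mean absolute deviation of log2 CPM from the group median was 0.04 with control and 0.11 with cryoablation (exact permutation p = 0.0239), which did not pass after adjustment over all tested genes (adjusted exact permutation p = 0.493). Exo1 was 1 of 8 genes with an unadjusted p under 0.05, against 8.07% of all tested genes, 7.85% wider with cryoablation and 0.215% wider with control. The other 7 gave p from 0.191 (Pms2) to 0.927 (Pms1) by the same exact permutation test. Leaving out 1 tumor gave p above 0.05 for 5 of the 17 tumors, 0.0528 without control replicate 6, 0.0549 without control replicate 9, 0.0720 without cryoablation replicate 1, 0.0816 without cryoablation replicate 4 and 0.104 without cryoablation replicate 8 (all exact permutation). It was 0.0535 without cryoablation replicates 2, 4 and 5 together (exact permutation). Over both groups Exo1 was steady, and 1.61% of the tested genes had a smaller within-group SD of log2 CPM.

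Pold1, the catalytic and proofreading subunit of DNA polymerase delta that fills the gap, lies at chr7:44532746-44548849 (GRCm38, minus strand). Control values ran from 97.6 through 112.4 to 137.0 CPM and cryoablation values from 93.2 through 114.6 to 169.3 CPM. Cryoablation replicates 1 and 5 lay above all control tumors and replicate 4 below them. Means were 113.0 ± 12.1 CPM (SD, n = 9) and 124.0 ± 23.8 CPM (SD, n = 8), with a log2 fold change of 0.13 (SE 0.11) and an exact permutation p of 0.270. The interval of the fold was 0.939 to 1.28. The log2 fold change was 0.06 both without cryoablation replicate 5 alone and without replicates 2, 4 and 5.

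Mutyh, the glycosylase that removes adenine paired with oxidised guanine, lies at chr4:116807723-116819440 (GRCm38, plus strand). It ranged from 10.3 through 13.1 to 15.5 CPM in control tumors and from 11.4 through 14.6 to 20.9 CPM in cryoablation tumors. The cryoablation values exceeded the control median in 6 of 8 tumors and the highest control tumor in 3 (replicates 1, 2 and 5). Means were 12.9 ± 1.62 CPM (SD, n = 9) and 15.2 ± 2.89 CPM (SD, n = 8), a log2 fold change of 0.23 (SE 0.12) that did not pass the test (edgeR p = 0.0635, adjusted p = 0.728, exact permutation p = 0.0558). This value depended on single tumors. The exact permutation p ran from 0.0121 to 0.123 when 1 tumor was left out and was highest without cryoablation replicate 5, where the fitted log2 fold change was 0.16. It was under 0.05 in 4 of 17 cases, 0.0298 without control replicate 1, 0.0417 without control replicate 5, 0.0354 without cryoablation replicate 3 and 0.0121 without cryoablation replicate 7. Without cryoablation replicates 2, 4 and 5 the log2 fold change was 0.11 (edgeR unadjusted p = 0.345). In limma voom it was 0.31 with an unadjusted p of 0.00566.

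**Figure D3:**
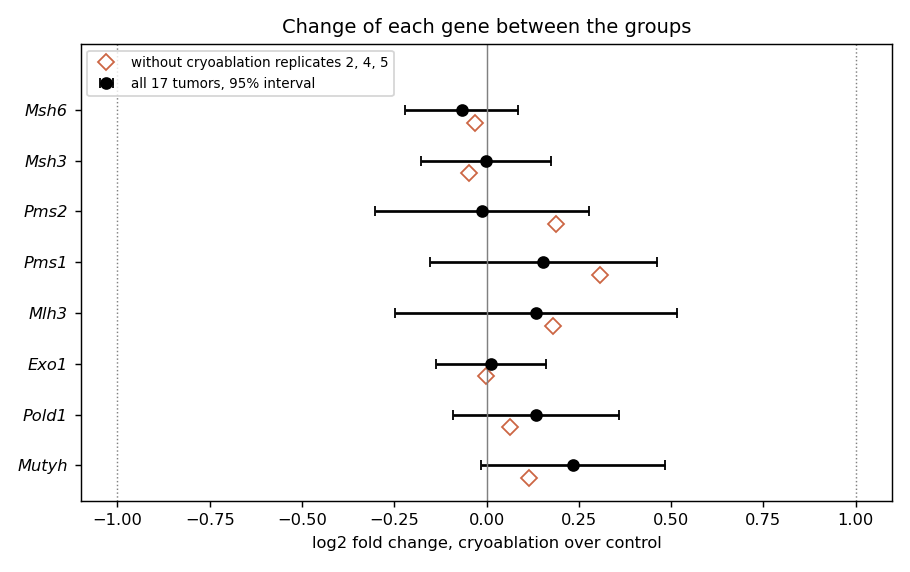
Log2 fold change of each gene, cryoablation over control, from edgeR on all 17 tumors with its 95% interval (black) and the value without cryoablation replicates 2, 4 and 5 (open diamonds). All intervals hold 0 and none reaches the dotted lines at an absolute value of 1, and the values of Pms2 and Pms1 are higher without the 3 tumors (0.19 and 0.31) than with them.

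The genes of the later steps and of the neighbouring pathways were read in the same edgeR fit. Of 15 genes of excision and resynthesis, 2 passed an unadjusted p of 0.05, both higher, against 4.91% of all tested genes. They were Rpa3, a subunit of the single-strand binding protein RPA, at a log2 fold change of 0.40 (SE 0.19), and Pold4, the small subunit of DNA polymerase delta, at 0.75 (SE 0.35). In edgeR both had an adjusted p of 0.728, and the exact permutation p was 0.117 for Rpa3 and 0.165 for Pold4. The count fell to 0 when any 1 of 11 tumors was left out (all control tumors but replicate 5, and cryoablation replicates 2, 4 and 5). Neither passed without cryoablation replicates 2, 4 and 5 (0 of 15). Pold3 (-0.06, SE 0.07) and Rfc1 (-0.01, SE 0.10) were the 2 genes below 0, and the median of the list was 0.17. Per length, the sliding clamp Pcna was the highest of the list at 186.9 FPKM and Pold4 the lowest at 4.09 FPKM.

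Of 15 tested genes of base excision repair, none passed an unadjusted p of 0.05 in edgeR (4.91% of all genes) or in DESeq2 (6.77%), with 7 above 0, 8 below 0 and a median of -0.00. The furthest values were those of Nudt1, which clears oxidised guanine nucleotides, at 0.57 (SE 0.30) and of the glycosylase Nthl1 at 0.43 (SE 0.26). On the other side were the glycosylase Mbd4 at -0.23 (SE 0.32) and the ligase Lig3 at -0.20 (SE 0.25). Neil2 (1 to 27 counts) and Fen1 (0 to 24 counts) were not tested. By listed positions Fen1 shares 156 bases with Tmem258 on the opposite strand. The cause of its low count was not tested, and the count is not read as a lack of expression. Of 29 DNA replication genes, 0 passed in edgeR and 1 (Pola2) in DESeq2, with 15 above 0 and 14 below 0 and values from -0.24 (Chaf1a, SE 0.22) and -0.20 (Pola1, SE 0.18) to 0.34 (Tk1, SE 0.18) and 0.40 (Gins1, SE 0.21). Of 14 mitosis genes, 0 passed in edgeR and in DESeq2, from -0.17 (Ccna2, SE 0.16) and -0.15 (Ccnb1, SE 0.11) to 0.33 (Cenpa, SE 0.16) and 0.45 (Birc5, SE 0.24).

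The next question was which of the 8 genes varied together over the tumors. For this, the group means were removed from log2 CPM and all 28 pairs were compared over 17 tumors, with p from 100000 permutations within groups, adjusted over all tested genes set against the first gene of the pair. The closest pair was Pms1 and Pms2 (Pearson's r = 0.87, p = 1e-05, the smallest these permutations can give, adjusted p = 0.0244, Spearman's rho = 0.86, adjusted p = 0.0207). The r was 0.86 without the 2 tumors farthest from the median and 0.84 without cryoablation replicates 2, 4 and 5. By rho, Pms1 had an adjusted p under 0.05 with 25.4% of all genes and Pms2 with 47.3%, so that the pair was one of many.

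Msh3 rose and fell with Mutyh (r = 0.73, adjusted permutation p = 0.00849, rho = 0.80, adjusted permutation p = 0.0111) and against Mlh3 (r = -0.75, adjusted permutation p = 0.0108, rho = -0.73, adjusted permutation p = 0.0173). Without cryoablation replicates 2, 4 and 5 the r values were 0.72 and -0.75, and without the 2 farthest tumors 0.67 and -0.76. Msh3 also followed Pold1 (r = 0.65, adjusted permutation p = 0.0161, rho = 0.65, adjusted permutation p = 0.0314), with r = 0.56 without cryoablation replicates 2, 4 and 5. A pair of other relations passed by 1 of the measures, Mlh3 with Pold1 by r (-0.67, adjusted permutation p = 0.04995, rho = -0.62, adjusted permutation p = 0.0844) and Pold1 with Mutyh by rho (0.71, adjusted permutation p = 0.0417, r = 0.68, adjusted permutation p = 0.0523). Their r without the 3 tumors was -0.58 and 0.59, and without the 2 farthest tumors -0.58 and 0.40. By rho, Mlh3 had an adjusted permutation p under 0.05 with 3.05% of all genes, Pold1 with 7.71% and Mutyh with 31.2%. No other of the 28 pairs had an adjusted p under 0.05 by r or rho. This count rests on the order in which the genes were listed, since the adjustment used the first gene of each pair only. Mlh3 with Mutyh, for instance, had rho = -0.61 (permutation p = 0.0145, adjusted over Mlh3 0.0841). Msh3 had an adjusted p under 0.05 by rho with 25.7% of all genes. Msh3 and Msh6, the alternative subunits of the MutS dimer, showed no such relation (r = -0.28, adjusted permutation p = 0.384, rho = -0.24).

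**Figure D4:**
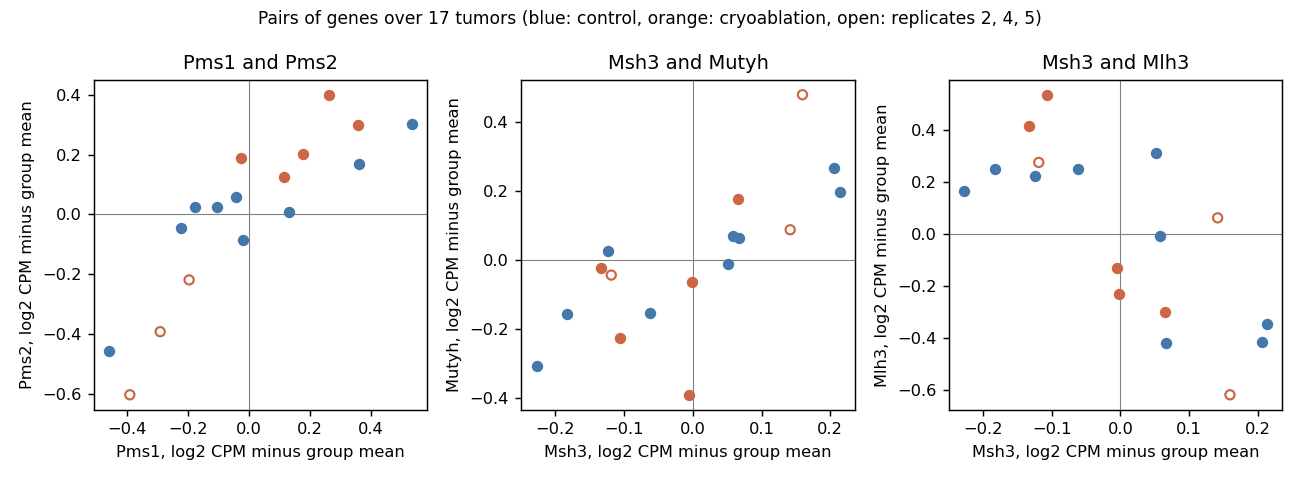
Log2 CPM minus the group mean of Pms2 against Pms1, of Mutyh against Msh3 and of Mlh3 against Msh3, 1 point per tumor (n = 17; blue, control; orange, cryoablation; open, replicates 2, 4 and 5). The first pair rises together (r = 0.87), the second likewise (r = 0.73), and the third runs the opposite way (r = -0.75).

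Each gene was also set against the gene-length slope of the tumors. The r with the slope was 0.80 for Pms2 (adjusted permutation p = 0.00254, rho = 0.81), 0.63 for Pms1 (adjusted permutation p = 0.0142, rho = 0.67), 0.57 for Msh6 (adjusted permutation p = 0.0418, rho = 0.52), -0.53 for Msh3 (adjusted permutation p = 0.0344, rho = -0.52) and -0.70 for Mutyh (adjusted permutation p = 0.00684, rho = -0.66). Mlh3 (0.49), Pold1 (-0.40) and Exo1 (0.10) did not pass, and Msh6 passed by r only (by rho, adjusted permutation p = 0.0739). Of all tested genes, 61.7% passed the same test. Without the 2 tumors farthest from the median slope, r was 0.78 for Pms2, 0.58 for Pms1, 0.58 for Msh6, -0.34 for Msh3 and -0.55 for Mutyh, and of these only Pms2 kept an adjusted p under 0.05 (permutation p = 0.00957), as did 52.7% of all genes. Mutyh is the shortest of the 8 genes (2612 bases listed) and Msh3 the longest (11254 bases), and both had a negative r. When cryoablation replicates 2, 4 and 5 were left out, r was 0.60 for Pms2, 0.39 for Pms1, 0.54 for Msh6, -0.57 for Msh3 and -0.64 for Mutyh, and only Mutyh passed (adjusted permutation p = 0.0397), as did 50.4% of all genes.

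**Figure D5:**
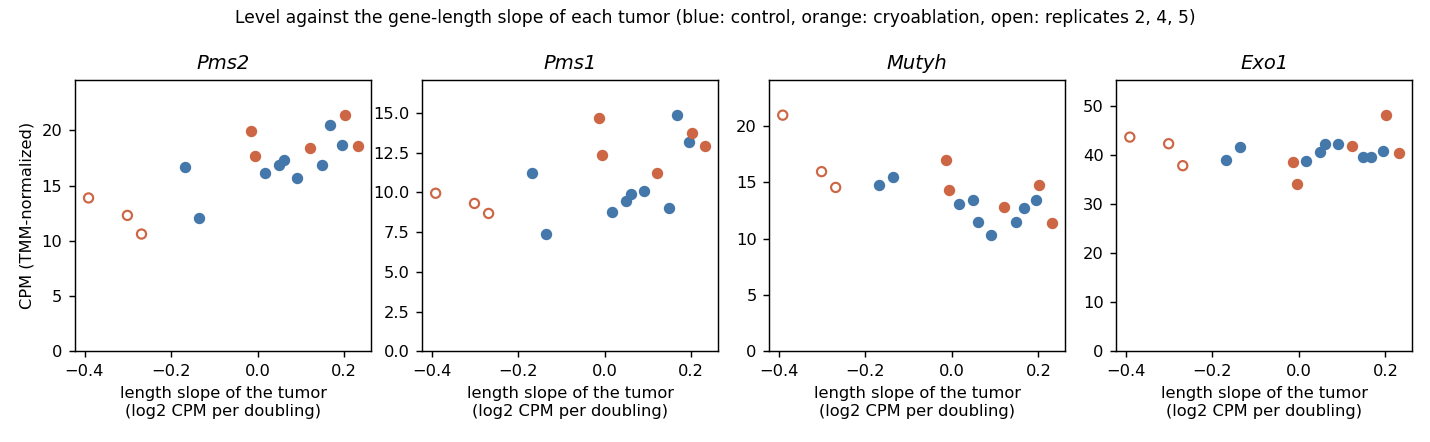
TMM-normalized CPM of Pms2, Pms1, Mutyh and Exo1 against the slope of log2 CPM per doubling of gene length in the same tumor (n = 17; blue, control; orange, cryoablation; open, replicates 2, 4 and 5). Pms2 and Pms1 are lower where the slope is lower, Mutyh is higher there, and Exo1 shows no trend (r = 0.10).

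Several genes of mismatch repair are induced as cells enter S phase, and each gene was therefore set against the mean log2 CPM of 29 DNA replication genes, which include none of the 8. Pold1 (r = 0.65, rho = 0.76, adjusted permutation p = 0.0277 and 0.00993) and Mutyh (r = 0.69, rho = 0.70, adjusted permutation p = 0.0231 and 0.0172) followed this score over 17 tumors, as did 36.7% of all tested genes. Without the 2 tumors farthest from the median score, r was 0.73 for Pold1 (adjusted permutation p = 0.0525) and 0.62 for Mutyh (adjusted permutation p = 0.0802), so neither passed by r, where 2.86% of all genes did, whereas Pold1 passed by rho (adjusted permutation p = 0.0394). On the 14 tumors other than cryoablation replicates 2, 4 and 5, r was 0.67 for Pold1 and 0.58 for Mutyh (adjusted permutation p = 0.213 and 0.219), where 0.285% of all genes passed. Msh3 (0.51), Exo1 (0.32) and Msh6 (0.12) did not pass, nor did Pms1 (-0.26), Pms2 (-0.43) and Mlh3 (-0.46) by r. The rho of Pms2 was -0.57, with an adjusted permutation p of 0.0475. The score itself had an r of -0.66 with the length slope (permutation p = 0.00399). With 14 mitosis genes in place of the replication genes, r was 0.29 for Pold1 and 0.32 for Mutyh and neither passed, nor did any of the tested genes.

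For each gene, the 2 genes with the most similar pattern over the 17 tumors were found by Spearman's rho, and these values are descriptions. Pms2 was followed most closely by Bloc1s6 and Usp40 (both 0.94) and Pms1 by Usp47 (0.90) and Ergic2 (0.88). Pold1 was followed by Ints3 (0.95) and Sorbs3 (0.93), Mutyh by Chaf1b and Sfxn4 (both 0.90) and Msh3 by Pkm and Gng8 (both 0.89). For Msh6 they were Slc16a4 (0.87) and Uhrf1 (0.85), for Mlh3 BC005537 (0.86) and Nhsl2 (0.85), and for Exo1 Misp (0.81) and Mmachc (0.77).

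Pms1, Mutyh and Pms2 start head to head with a neighbour on the opposite strand, by the positions listed in the deposited table. Pms1 starts 77 bases from Ormdl1, Mutyh 83 bases from Toe1 and Pms2 117 bases from Aimp2. None of these 3 pairs passed the test of correlation over the tumors. Ormdl1 with Pms1 had r = -0.55 and rho = -0.56 (adjusted permutation p = 0.0630 and 0.0729), and -0.30 without cryoablation replicates 2, 4 and 5. Aimp2 with Pms2 had r = 0.18 and rho = -0.21 (adjusted permutation p = 0.681 and 0.503), and r = -0.69 without the 2 farthest tumors. Toe1 with Mutyh had r = 0.24 and rho = 0.15 (adjusted permutation p = 0.496 and 0.661). The log2 fold changes were 0.23 (SE 0.16) for Ormdl1, -0.07 (SE 0.16) for Aimp2 and -0.01 (SE 0.13) for Toe1 in edgeR. Listed positions also place Gm42421 over 5794 bases of Pms2 (0 counts) and Rsph10b over 934 bases of it (at most 38 counts), both on the same strand. On the opposite strand, Gm20379 lies over 1204 bases of Msh3 (at most 11 counts) and Fbxo11 over 34 bases of Msh6. Whether the counting used strand is not given in the sources used here, and reads in these shared bases cannot be told apart.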

How the data were processed

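RNA sequencing of 9 control and 8 cryoablation distant MC38 tumors was analysed. The paper gives the reverse group sizes, 9 cryoablation and 8 control samples, and the sample labels were followed here. The authors deposited read counts per gene, which are not normalized, and FPKM. In all 372827 cases the deposited FPKM equalled the count over the listed gene length and the total count within rounding, and they were used for nothing else. The submitters' processing notes name GRCm38 and mm10. The aligner and counter are not given in the sources used here. Positions are those of GENCODE M21 on GRCm38, since the listed positions equal them for 512 of 21827 shared genes.

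Counts were tested with edgeR 4.0.16 in R 4.3.3 (TMM, filterByExpr by group, quasi-likelihood F test), with p adjusted by the Benjamini-Hochberg method over 13005 genes. Single genes were compared by two-sided exact permutation of log2 CPM (prior count 2) over all 24310 splits, whose smallest p is 4.11e-05. The spread was compared likewise, by the mean absolute deviation from the group median. These deviations were taken once from the actual groups and then permuted, without a new median for each split, so the p-values of spread are approximate. Correlations used 100000 permutations within groups in Python 3.11.15 and SciPy 1.17.1. Alternatives were DESeq2 1.42.0, limma 3.58.1 voom, upper-quartile and DESeq2 size factors, other filters, a replicate block, offsets for gene length (splines with 4 degrees of freedom) and leaving out each tumor. Scripts were tested on simulated data with 200 changed genes.

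The genes named are the 8 genes, the genes of each list with the 2 highest and the 2 lowest log2 fold changes, the head-to-head neighbours and the 2 genes most alike each of the 8. One neighbour is not reported here. The members and lists were chosen with earlier results of these data known. Leaving out cryoablation replicates 2, 4 and 5, the ratios, the spread test over all genes, and the naming of the genes past p under 0.05 were added after seeing the data. Columns with no sample label numbered 0. A count of 3 was the floor, and the counts per tumor limit the precision, with counting error alone giving a coefficient of variation from 2.21% (Msh6) to 12.8% (Mlh3).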

Additional observations from a re-analysis of the deposited data

Results flagged for a closer look

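Dixon's test for a single distant value was run on 96 groups, the control and cryoablation values of the named genes, and chance marks about 1 in 20 groups. It marked 4 groups and none of the 8 repair genes. Ormdl1, the head-to-head neighbour of Pms1, was at 42.6 CPM in cryoablation replicate 4, with the next cryoablation tumor at 27.4 CPM. Pold4 was at 6.74 CPM in control replicate 5, with the next control tumor at 3.96 CPM. Msh5 was at 10.8 CPM in the same control tumor, with the next at 8.55 CPM. Nhsl2, one of the 2 genes most alike Mlh3, was at 7.44 CPM in control replicate 4, with the next at 3.85 CPM. Cryoablation replicate 4 is 1 of the 3 tumors with low levels of long genes, and the cause of these values was not tested.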

How the results depend on the processing

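No member had an adjusted p under 0.05 in edgeR, DESeq2 or limma voom under any alternative run. Signs near 0 turned. The log2 fold change of Msh3 was 0.0041 with DESeq2 size factors, 0.0039 in DESeq2, 0.12 with gene length offsets and 0.0563 in limma voom. Mlh3 gave -0.0066 in limma voom. Pms2 gave 0.0590 with length offsets and 0.11 in limma voom. Exo1 gave -0.0066 with upper-quartile normalization, -0.0010 with no filter and -0.0744 in limma voom. The cause was not tested.

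Without cryoablation replicates 2, 4 and 5 the fitted log2 fold change was 0.19 for Pms2 and -0.0021 for Exo1. The differences of log2 CPM were -0.0345 for Msh3, 0.33 for Pms1 (exact permutation p = 0.0430), 0.20 for Pms2 and -0.0033 for Exo1. The differences in spread were -0.0040 for Msh6, -0.11 for Pms1, -0.0486 for Pms2, 0.0844 for Exo1 (exact permutation p = 0.0535) and -0.0356 for Pold1. The log2 difference of the ratio of Msh6 to Msh3 was 0.0092, and that of Pms2 to Pms1 was -0.13. The excision and resynthesis list had 0 calls, and 325 genes in all had p under 0.05.

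The number of genes past the study's threshold was 64, and 432 with no filter or 41 with length offsets. The number with an unadjusted p under 0.05 was 639, and 992 with no filter or 1312 in limma voom. DNA replication had 1 call in DESeq2.

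Samples with the same replicate number did not deviate together throughout (r from -0.51 to 0.64 over 8 numbers), so the numbers were not taken to pair the tumors. A replicate block for numbers 1 to 8 gave 33 genes past the study's threshold and a log2 fold change of 0.0040 for Msh3, and it changed no call of the 8 genes.

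The r with the replication score was, for Pold1, 0.66 in control tumors alone, 0.68 in cryoablation tumors alone, 0.73 without the 2 farthest tumors, 0.29 with the mitosis list and 0.67 without the 3 tumors. For Mutyh these were 0.42, 0.92, 0.62, 0.32 and 0.58. None of these r had an adjusted permutation p under 0.05. In control tumors alone, in cryoablation tumors alone and with the mitosis list, 0.0% of all tested genes passed. These 3 settings therefore cannot set the 2 genes apart from the rest. The share was 2.86% without the 2 farthest tumors and 0.285% without the 3 tumors. For Msh6 r was -0.0468 in cryoablation tumors alone and also without the 2 farthest (-0.0542), and for Pms1 0.10 with the mitosis list.

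Leaving out 1 tumor at a time, the threshold count was lowest at 34 without cryoablation replicate 5, and the unadjusted count at 252 without cryoablation replicate 2. Both were highest without cryoablation replicate 3, at 165 and 1388. Fitted log2 fold changes ran from -0.0360 to 0.0263 for Msh3, -0.10 to -0.04 for Msh6, 0.05 to 0.21 for Mlh3, 0.09 to 0.23 for Pms1, -0.0769 to 0.0601 for Pms2, -0.0297 to 0.0465 for Exo1, 0.06 to 0.18 for Pold1 and 0.16 to 0.28 for Mutyh. The differences of log2 CPM ran from -0.0264 to 0.0288 for Msh3, -0.0957 to 0.0473 for Pms2, -0.0273 to 0.0432 for Exo1 and 0.15 to 0.28 for Mutyh. The differences in spread ran from 0.0454 to 0.0805 for Exo1, -0.0105 to 0.0148 for Msh6, -0.0320 to 0.0524 for Pms1 and -0.0040 to 0.0697 for Mutyh. Calls ran from 0 to 4 in excision and resynthesis, 0 (8 control and 3 cryoablation tumors left out, each alone) at the lowest and 4 without cryoablation replicate 7, from 0 to 4 in DNA replication and from 0 to 2 in base excision repair and in mitosis.

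The lowest counts were those of Mlh3, 29 to 117 per tumor, where counting error alone gives a coefficient of variation of 12.8% against 24.2% observed.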
